A study of Homo sapiens with 6 samples.

Results

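The collagen chain genes are the genes whose products wind around each other, in sets of like or unlike chains, to form the collagen helix. They were taken as every gene of the deposited count table with a symbol of the form COL, number, A, number, which gave 44 of 61228 genes. The table holds 6 RNA-seq libraries of MDA-MB-231, an established triple-negative human breast cancer line with a mesenchymal character, in 2 groups of n = 3. The control cells were nucleofected with Cas9 and control guide RNAs. The knockout (KO) cells were nucleofected with Cas9 and guides against ETV1, ETV4 and ETV5, which encode related ETS transcription factors; the KO sample titles name ETV4 alone, and the treatment label names all 3 genes. Both groups were grown in 3D gels of collagen I and were released from the gel with collagenase before lysis. All KO library names carry an unexplained tag, c39, and the labels are silent on whether it marks a single clone. The gels were made at either of 2 collagen concentrations, and the concentration used for each library is not given. Separate cultures are not named for the replicates; the p-values thus cover the spread among these libraries, possibly only a technical one.

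Collagens are the main structural proteins of the extracellular matrix. Fibrillar collagens assemble into the tensile fibres of connective tissue, type IV collagens form the sheet of basement membranes, and FACIT collagens (fibril-associated collagens with interrupted helices) decorate fibrils. Transmembrane collagens sit in the cell membrane with their helix outside the cell, and their outer part can be shed by proteases. In tumours, collagen I is made largely by fibroblasts, while carcinoma cells are known to express basement membrane and transmembrane chains.

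Library totals ran from 18042601 to 23232770 counts. The first principal component (49.3% of the variance) separated the groups and the second (39.4%) set replicate 3 of both groups apart from the other libraries. As a check of the labels, ETV1 averaged 223 CPM (counts scaled to a library of 1000000) in control and 142 in KO, ETV4 averaged 93.9 and 63.7, and ETV5 averaged 112 and 113; read counts do not show whether the remaining transcripts carry an edit. Of 8 basal and mesenchymal markers of such lines, 7 stood at 109 CPM (ZEB1 in KO) or more in every library, up to 7290 CPM for VIM, while CDH2 was at 0.0945 to 0.936 CPM. Of 10 luminal markers, ESR1, PGR and CDH1 were at or below 0.269 CPM, and the others ran from 1.19 CPM for FOXA1 to 727 CPM for KRT19, with KRT8 at 445 to 541 CPM and EPCAM at 17.3 to 22.5 CPM. Among fibroblast and stromal markers, PDGFRA, FAP, POSTN, DCN, LUM and DPT were at or below 0.425 CPM in every library. The others were low but present. PDGFRB averaged 3.57 CPM in control and 2.38 in KO, RGS5 2.72 and 2.83, ACTA2 1.75 and 1.63, and PI16 1.46 and 2.60. The 10 fibroblast and stromal markers together summed to 8.97 to 10.2 CPM in control and 8.26 to 10.5 CPM in KO. The 6 endothelial markers summed to 9.73 to 11.1 CPM in control and 5.89 to 8.46 in KO, with CDH5 and CLDN5 at 0. Most of this sum was PECAM1 (mean 6.76 CPM in control and 3.74 in KO) and KDR (3.68 and 3.27). The 6 leukocyte markers summed to 6.81 to 8.13 CPM and 2.86 to 3.52 CPM, with CD3E at 0. LYZ was the largest part (mean 6.03 CPM in control and 1.55 in KO), and CD14 averaged 0.866 and 0.947 CPM. Both sums were lower in KO, and their part in the chain differences was not tested.

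Of the 44 chains, 22 were expressed, taken as 10 or more counts in at least 3 libraries, and 9 had no count in any of the 6 libraries. A count of 0 allows up to 3 counts, worth 0.128 to 0.165 CPM in these libraries; such limits cover counting error only. By class, 5 of 11 fibrillar, 4 of 6 basement membrane (type IV), 4 of 10 FACIT and 2 of 4 transmembrane chains were expressed. Of the other chains, 3 of 5 beaded filament (type VI), the anchoring fibril chain COL7A1, 1 of 3 short-chain network chains and both multiplexins (COL15A1 and COL18A1) were expressed. COL26A1 and COL28A1 were not. The chains at 0 throughout were COL2A1, COL5A3, COL6A5, COL9A1, COL10A1, COL22A1, COL23A1, COL25A1 and COL26A1. Just inside the threshold lay COL15A1, with 5, 5 and 8 counts in control and 24, 18 and 14 in KO, and COL11A2, with 5 to 18 counts. Just outside lay COL4A6, with 3 to 10 counts, and COL11A1, with 1 to 8.

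**Figure D1:**
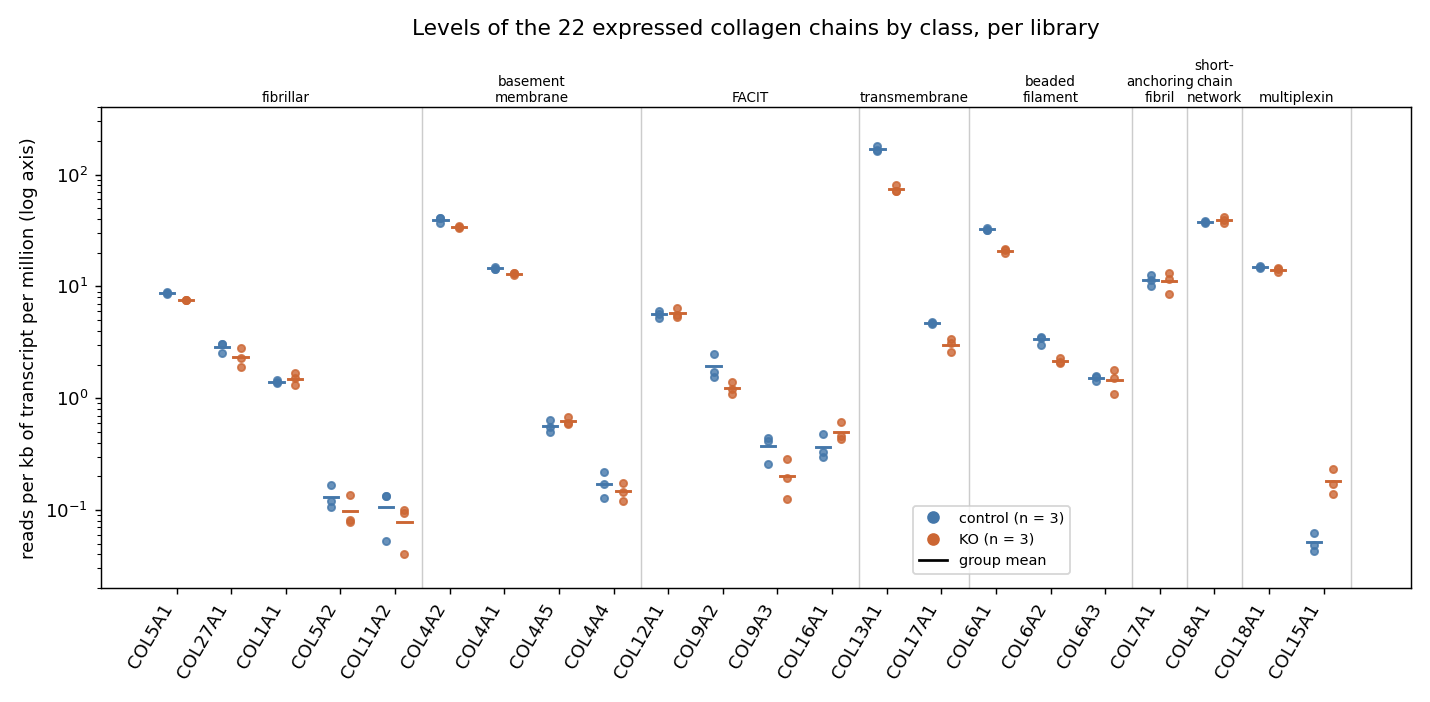
Each point is 1 library; the y axis gives RPKM on a log scale, and horizontal lines are group means (n = 3). COL13A1 stands above all other chains in both groups, and COL15A1 is the lowest expressed chain in control.

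Levels were compared between chains only per length, as CPM per kilobase of transcript (RPKM). COL13A1, the transmembrane type XIII chain found at cell adhesion sites, was highest in both groups, at 170 ± 8.91 RPKM (SD, n = 3) in control and 74.3 ± 5.37 in KO. In control it was followed by COL4A2 (39.5 ± 2.36), COL8A1 (37.5 ± 0.94) and COL6A1 (32.7 ± 0.76); the libraries of COL4A2 and COL8A1 overlapped. COL18A1 (14.9 ± 0.21), COL4A1 (14.5 ± 0.32), COL7A1 (11.4 ± 1.24) and COL5A1 (8.70 ± 0.21) came next, and COL18A1 and COL4A1 overlapped. COL12A1 stood at 5.64 ± 0.45 RPKM, COL17A1 at 4.70 ± 0.07 and COL6A2 at 3.35 ± 0.30. The remaining 11 expressed chains were at or below 2.88 RPKM. In KO, COL8A1 (39.2 ± 2.28) stood above COL4A2 (34.0 ± 0.72), and the chains ranked 4 to 10 kept the control order. COL6A1 ranked 4 in both groups.

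Partner chains of the same collagen type were present at unequal levels. Type I collagen is built from COL1A1 and COL1A2: COL1A1 had 170 to 218 counts in each library, whereas COL1A2 had at most 4 and COL3A1, the type III chain, at most 3. Per length, COL6A1 stood 9.80 ± 0.84 times above COL6A2 in control and 9.71 ± 0.71 times in KO (exact permutation test on log2 ratios, two-sided p = 0.8). COL4A2 stood 2.73 ± 0.14 and 2.61 ± 0.07 times above COL4A1 (exact permutation p = 0.3), and COL5A1 stood 69.0 ± 16.6 and 82.2 ± 23.5 times above COL5A2 (exact permutation p = 0.5). The ratio of COL6A1 to COL6A3 was 21.9, 20.4 and 22.6 in control and 13.8, 11.2 and 19.8 in KO, without overlap. Its exact permutation p was 0.1, the smallest that 3 against 3 allows. Over the 5 ratios tested, the adjusted p-values of these exact permutation tests were 0.5 for COL6A1 to COL6A3, 0.8 for COL6A1 to COL6A2 and 0.75 for the others, among them COL9A2 to COL9A3. These tests do not use the replicate numbers. Within numbers, KO was lower in 3 of 3 pairs for COL4A2 to COL4A1 and for COL6A1 to COL6A3, higher in 3 of 3 for COL5A1 to COL5A2, and not in 1 direction for the other ratios; an exact paired permutation test of 3 pairs cannot go under p = 0.25.

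Each of the basement membrane gene pairs lies head to head in the genome (GENCODE 29, GRCh38). The gene models of COL4A1 and COL4A2 overlap at their starts on chromosome 13, and the starts of COL4A3 and COL4A4 on chromosome 2 and of COL4A5 and COL4A6 on chromosome X lie 112 and 347 bases apart. In the first pair both chains were expressed, and in each of the others a single chain was: COL4A4 had 23 to 41 counts against 0 to 7 for COL4A3, and COL4A5 had 60 to 87 against 3 to 10 for COL4A6.

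Between the groups, 4 chains fell in KO, 1 rose and 17 did not pass the test (edgeR's quasi-likelihood test, adjusted p under 0.05 over all 14704 genes tested). Those that fell were both expressed transmembrane chains, COL13A1 and COL17A1, and the type VI chains COL6A1 and COL6A2; the multiplexin COL15A1 rose. Of all genes tested, 6.42% fell and 3.28% rose. The chains that passed the low-count filter had a median log2 fold change of -0.21, against 0.00 for all genes tested. COL15A1 passed the filter through its KO libraries alone and COL9A3 mainly through control, so these counts do not cover all 44 chains. Among the 19 tested chains over the filter's minimum in all 6 libraries, 4 fell, with a median of -0.20.

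With the replicate number as a block, 9 chains fell and 1 rose, but 16.7% and 17.2% of all genes did. The chains added were COL4A1, COL4A2, COL5A1, COL27A1 and COL9A2. Without both replicate 3 libraries, a choice made after the data were seen, 9 chains fell and 1 rose. In that fit, 13.7% of all genes fell and 11.7% rose.

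**Figure D2:**
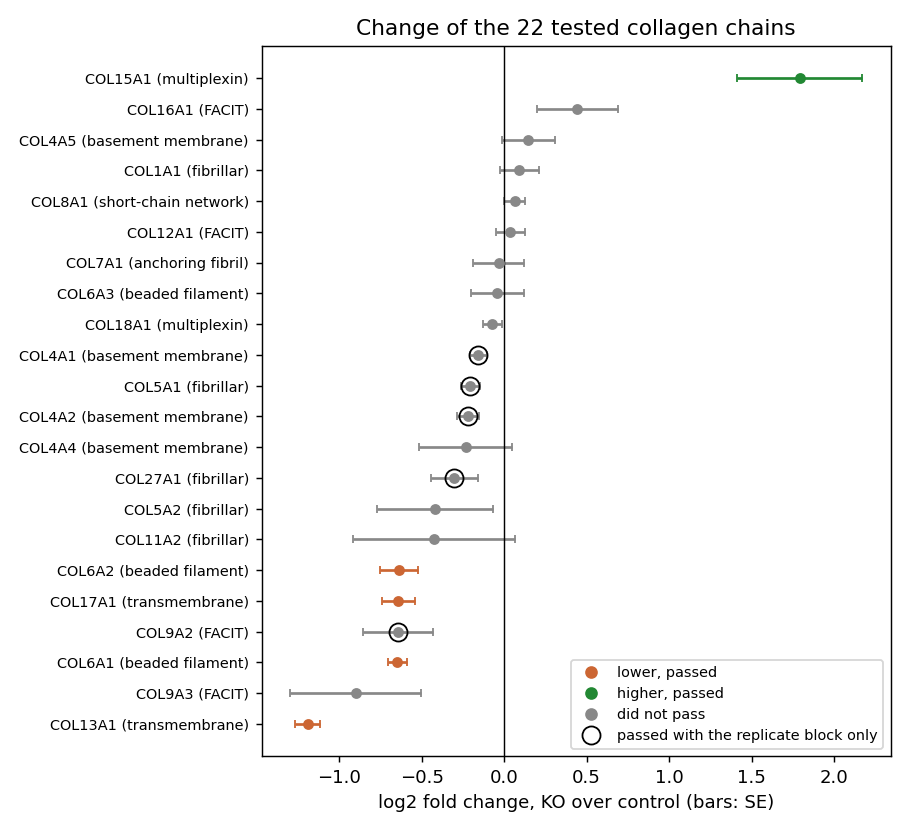
The x axis is the log2 fold change of KO over control with its SE for the 22 tested chains, listed with their class; colour gives the test result and open rings mark chains that passed with the replicate block alone. COL13A1 has the largest decrease (-1.19) and COL15A1 is the chain that rose (1.79). COL15A1 passed the low-count filter through its KO libraries alone.

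COL13A1 (ENSG00000197467, chromosome 10, 69801867 to 69964275, plus strand) was the most abundant and the most decreased chain. It measured 523, 525 and 573 CPM in control and 228, 226 and 257 CPM in KO. Every KO library lay below every control library. It fell 2.28-fold (log2 fold change, or log2 change, of -1.19, SE 0.07, adjusted p = 5.54e-05 in edgeR), and the decrease ran from -1.23 to -1.15 with any single library left out.

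COL17A1 (ENSG00000065618, chromosome 10, 104031286 to 104085957, minus strand) encodes the hemidesmosomal collagen XVII, which anchors epithelial cells to the basement membrane. Its values were 26.4, 27.2 and 26.7 CPM in control and 19.1, 17.6 and 14.8 CPM in KO, so the groups did not overlap. It fell 1.56-fold (log2 change -0.64, SE 0.10, adjusted p = 0.00518 in edgeR) and held its call whichever library was omitted (6 fits). The remaining transmembrane chains, COL23A1 and COL25A1, had no counts.

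Type VI collagen forms beaded filaments between cells and the fibrillar matrix, and its helix needs COL6A1 and COL6A2 together with a further chain such as COL6A3. COL6A1 (ENSG00000142156, chromosome 21, 45981737 to 46005050, plus strand) measured 142, 137 and 137 CPM in control and 89.1, 84.6 and 91.5 CPM in KO. The fall was 1.57-fold, with a log2 fold change of -0.65 (SE 0.06) and an edgeR adjusted p of 3.37e-04. COL6A2 (ENSG00000142173, chromosome 21, 46098097 to 46132849, plus strand), its neighbour in tandem, measured 12.1, 12.3 and 10.4 CPM in control and 7.93, 7.32 and 7.10 CPM in KO. Neither chain overlapped between groups. COL6A2 fell 1.55-fold (log2 change -0.64, SE 0.11, adjusted p = 0.0104 in edgeR); without control replicate 1 or control replicate 2 it did not pass (adjusted p = 0.0561 and 0.0608). COL6A3 (chromosome 2) measured 16.5, 16.97 and 15.3 CPM in control and 16.4, 19.2 and 11.7 CPM in KO. Its groups overlapped and it did not pass (log2 change -0.04, SE 0.16, adjusted p = 0.907 in edgeR); without KO replicate 3 its sign turned (0.15). Whether COL6A3 changed less than COL6A1 was not tested beyond the ratio given above.

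COL15A1 (ENSG00000204291, chromosome 9, 98943179 to 99070792, plus strand) encodes a basement membrane zone collagen of the multiplexin class, as does COL18A1, the precursor of endostatin. It measured 0.236, 0.269 and 0.340 CPM in control and 1.29, 0.935 and 0.771 CPM in KO, low in all libraries and without overlap. It rose 3.46-fold (log2 change 1.79, SE 0.38, adjusted p = 0.0200 in edgeR). It passed the low-count filter through its KO libraries alone, so it reached the test only through the group where it was higher. It did not pass when control replicate 1, control replicate 2, KO replicate 1 or KO replicate 2 was left out (adjusted p = 0.0940, 0.0870, 0.0955 and 0.0700). COL18A1 measured 97.3, 97.0 and 99.5 CPM in control and 94.7, 87.8 and 97.2 CPM in KO. Its groups overlapped (log2 change -0.07, SE 0.06, adjusted p = 0.519 in edgeR).

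The upstream sequences of the decreased chains are shown because these chains moved in the same direction. RefSeq promoter windows (GRCh38.p14) were matched for 32 of the 44 chains, among them COL13A1, COL17A1 and COL6A2 but not COL6A1. Of the 250 bases before each start, the stretch outside annotated exons is printed 5′ to 3′ on the gene's strand: chr10:69801656-69801866 (plus), chr10:104085958-104086130 (minus) and chr21:46097862-46098096 (plus). Capitals mark matches on either strand to AGGAAG or CGGAAG, longer forms of the GGAA core of ETS-type sites. They also mark ACGTG or GCGTG, cores of hypoxia response elements. GGAA outside these longer forms was not searched for and stays in lower case, as in COL17A1.
COL13A1: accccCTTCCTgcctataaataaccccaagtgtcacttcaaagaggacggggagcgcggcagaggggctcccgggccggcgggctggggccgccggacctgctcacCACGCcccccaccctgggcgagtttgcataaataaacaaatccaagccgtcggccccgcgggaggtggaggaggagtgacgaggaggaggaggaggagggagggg
COL17A1: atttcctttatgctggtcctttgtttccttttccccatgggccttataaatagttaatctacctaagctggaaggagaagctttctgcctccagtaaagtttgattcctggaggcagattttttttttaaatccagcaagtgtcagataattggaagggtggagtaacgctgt
COL6A2: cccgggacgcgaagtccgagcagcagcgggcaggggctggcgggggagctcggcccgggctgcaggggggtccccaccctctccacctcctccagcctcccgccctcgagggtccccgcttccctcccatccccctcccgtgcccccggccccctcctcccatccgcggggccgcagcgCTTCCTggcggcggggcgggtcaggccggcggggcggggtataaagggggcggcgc
COL13A1 held 1 AGGAAG match and 1 GCGTG match, and COL6A2 held 1 AGGAAG match, all as reverse complements. COL17A1 held no match to the searched letters in the stretch. The expressed chains with a window numbered 17, with 22 windows of 250 bases between them. Some chains had several windows, and those of COL5A1 overlap, so a match can count more than once. AGGAAG was found in 7 of these 22 windows and in 28.7% of all 35116 windows. CGGAAG was found in 2 of 22 and 16.5%, and ACGTG or GCGTG in 10 of 22 and 43.2%. The motifs do not overlap in these stretches, and a match is a match of letters only.

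Both type IV chains of the common basement membrane network were slightly lower in KO without passing the test. COL4A2 measured 264, 267 and 239 CPM in control and 225, 221 and 216 CPM in KO (log2 change -0.22, SE 0.06, adjusted p = 0.0691 in edgeR). COL4A1 measured 94.7, 98.3 and 94.6 CPM in control and 86.8, 84.5 and 86.8 CPM in KO (log2 change -0.16, SE 0.05, adjusted p = 0.1099 in edgeR). In both, every KO library lay below every control library, as for 16.8% of all genes tested. With the replicate block both passed (adjusted p = 1.56e-06 for COL4A2 and 0.00451 for COL4A1), and COL4A2 passed without control replicate 3 (adjusted p = 0.0308). COL4A5 (3.65 ± 0.44 and 4.05 ± 0.31 CPM) and COL4A4 (1.73 ± 0.47 and 1.47 ± 0.28 CPM), chains of specialised basement membranes such as that of the kidney, overlapped between groups.

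Of the 5 fibrillar chains tested, 0 passed in edgeR or DESeq2, and 1 had an unadjusted p under 0.05 in edgeR. COL5A1, the type V chain that helps to start collagen fibrils and sets their width, was the most abundant, with 71.7, 75.2 and 74.2 CPM in control and 63.6, 64.0 and 64.3 CPM in KO. The groups did not overlap, but the difference missed the threshold (log2 change -0.20, SE 0.06, adjusted p = 0.0534 in edgeR). With the block it passed (adjusted p = 6.78e-04), and with a filter of at least 1 CPM on average the adjusted p was 0.0459. COL27A1, a minor fibrillar chain, measured 19.6, 24.0 and 23.8 CPM in control and 17.9, 15.0 and 21.9 CPM in KO, with KO replicate 3 inside the control range (log2 change -0.30, SE 0.14, adjusted p = 0.229 in edgeR; with the block adjusted p = 0.0122). COL1A1, the chain that also makes up the gel as protein, measured 9.40, 9.70 and 9.27 CPM in control and 11.3, 8.83 and 10.1 CPM in KO (log2 change 0.09, SE 0.12, adjusted p = 0.686 in edgeR). COL5A2 (10 to 25 counts) and COL11A2 were too low for a precise estimate, with SE of 0.35 and 0.49.

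Among the FACIT chains, COL12A1, which lies on the surface of collagen I fibrils, measured 66.2, 71.3 and 60.8 CPM in control and 65.1, 75.1 and 63.1 CPM in KO. Its groups overlapped (log2 change 0.04, SE 0.09, adjusted p = 0.847 in edgeR), and its sign turned without control replicate 3 (-0.0206) or KO replicate 2 (-0.0378). COL9A2, a chain of cartilage type IX collagen, measured 7.18, 4.96 and 4.42 CPM in control and 3.11, 4.00 and 3.47 CPM in KO. The highest KO library lay just below the lowest control library, and the difference did not pass (log2 change -0.65, SE 0.21, adjusted p = 0.0955 in edgeR; with the block adjusted p = 0.00355). COL9A3 (0.930 ± 0.248 and 0.503 ± 0.203 CPM) and COL16A1 (2.12 ± 0.55 and 2.87 ± 0.54 CPM) overlapped between groups and did not pass.

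COL8A1, the short-chain network collagen of vessel walls and the eye, ranked 3 by RPKM in control. It measured 214, 219 and 209 CPM in control and 222, 238 and 212 CPM in KO, with overlapping groups (log2 change 0.07, SE 0.06, adjusted p = 0.585 in edgeR). COL7A1, whose product forms the anchoring fibrils beneath epithelia, measured 93.8, 106 and 117 CPM in control and 108, 79.4 and 123 CPM in KO. Its libraries were the most variable among the chains above 50 CPM, and KO replicate 2 was the lowest (log2 change -0.03, SE 0.15, adjusted p = 0.928 in edgeR). Its sign turned without control replicate 3 (0.0477) or KO replicate 2 (0.13).

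Summed over the 44 chains as counts, not per length, collagen transcripts made up 1669, 1703 and 1704 CPM in control and 1271, 1243 and 1291 CPM in KO. These correspond to 0.165%, 0.168% and 0.173% of all counts in control and 0.127%, 0.124% and 0.130% in KO, without overlap. COL13A1 alone accounted for 71.6% of the difference in the sum, COL6A1 for 11.8% and COL4A2 for 8.53%. The share of COL13A1 among collagen counts was 31.9% ± 1.496 in control and 18.7% ± 1.059 in KO. Without COL13A1 the sum was 1152 ± 23.9 CPM in control and 1031 ± 13.6 CPM in KO. In these bulk samples, fewer cells expressing a chain and less of its RNA per cell cannot be told apart.

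**Figure D3:**
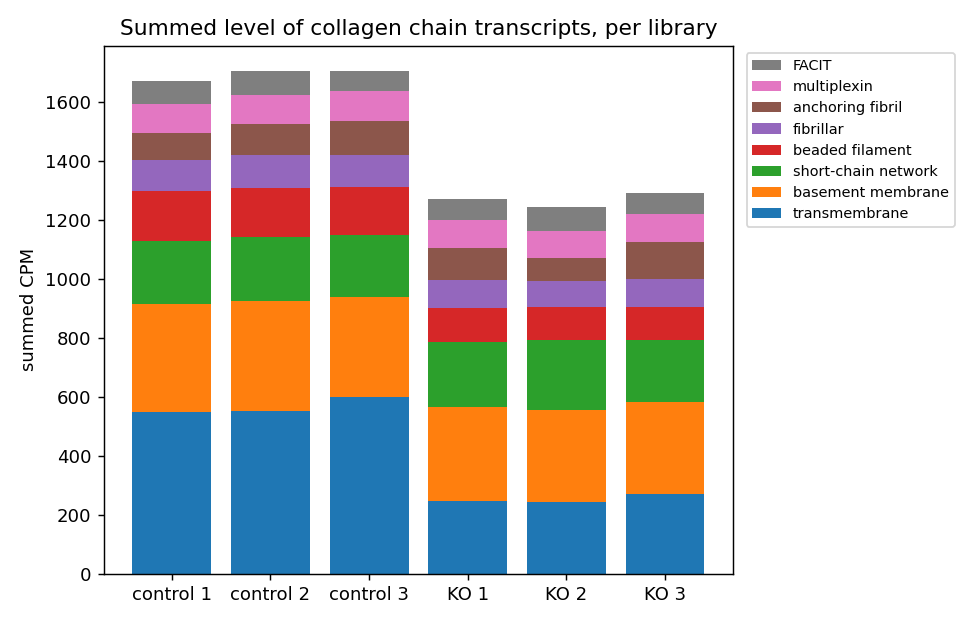
Bars give the summed CPM of the collagen chains in each library, stacked by class. The transmembrane segment, mostly COL13A1, is 549 to 600 CPM in control and 244 to 271 CPM in KO. The short-chain network, FACIT, anchoring fibril and multiplexin segments overlap between groups.

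Genes that modify, cross-link, bind or degrade collagen were read from 6 lists written from general knowledge. The lists were chosen with earlier results of these data known, so their counts are descriptive and not an independent test. In the list for hydroxylation, glycosylation and folding, 5 of 19 tested genes fell and 14 did not pass, with a median log2 fold change of 0.01; of all genes tested, 6.42% fell and 3.28% rose, which is the background for each list. P4HA1 and P4HA2, catalytic subunits of the prolyl hydroxylase that stabilises the collagen helix, fell (log2 fold changes -1.10, SE 0.07, and -0.62, SE 0.07). P4HA1 measured 140, 138 and 131 CPM in control and 65.6, 66.0 and 58.7 CPM in KO. The lysyl hydroxylase PLOD2 (-0.59, SE 0.05) and the hydroxylysine galactosyltransferase COLGALT2 (-0.45, SE 0.06) also fell. The fifth was the lysyl hydroxylase PLOD1 (-0.42, SE 0.08), named after its values were seen. With 1 library left out, 4 to 5 of the list fell, while 2.89% to 6.42% of all genes did. With the replicate block, 7 fell and 5 rose, where 16.7% of all genes fell and 17.2% rose.

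In the list for export, processing and cross-linking, 4 of 17 fell and 13 did not pass, with a median of -0.05. The 4 were the cross-linking enzymes LOX (-1.21, SE 0.08), LOXL1 (-0.83, SE 0.09), LOXL2 (-0.51, SE 0.07) and LOXL4 (-0.47, SE 0.11). LOX measured 93.6, 85.5 and 78.9 CPM in control and 37.4, 38.3 and 35.3 CPM in KO, with no overlap. Omitting replicate 1 or 2 of either group ended the call for LOXL4 (adjusted p = 0.0727 to 0.134).

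Among 9 tested collagen receptors 3 fell and 6 did not pass, with a median of -0.26. ADGRG1, an adhesion receptor that binds collagen III, measured 194, 189 and 173 CPM in control and 127, 116 and 107 CPM in KO, a fall of 0.67 on the log2 scale (SE 0.08). The integrin subunit ITGA10 (-0.96, SE 0.13) and the collagen-activated kinase DDR1 (-0.55, SE 0.08) fell too. MRC2, an endocytic collagen receptor, measured 55.7 ± 2.29 and 46.5 ± 3.43 CPM (adjusted p = 0.0609 in edgeR's test; 1.22e-04 with the block).

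Of 7 tested collagen-degrading proteases, MMP14 fell, MMP16 rose and 5 did not pass, with a median of 0.06. MMP14, the membrane-anchored collagenase of the cell surface, measured 1056, 1041 and 1095 CPM in control and 836, 801 and 920 CPM in KO (log2 change -0.32, SE 0.07, adjusted p = 0.0235 in edgeR). Omitting replicate 1 or 2 of either group ended this call too (adjusted p = 0.0856 to 0.108). MMP16, a related membrane-anchored protease, averaged 6.77 ± 0.67 CPM in control and 12.4 ± 1.56 CPM in KO, a rise of 0.87 on the log2 scale (SE 0.13). MMP1 (0.31, SE 0.10) and MMP15 (0.35, SE 0.14) passed with the block alone, where 3 of the 7 rose, against 17.2% of all genes.

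Of 11 fibril-associated proteins, 3 were high enough to test. Among these, the matrix glycoprotein gene THBS1 rose (log2 fold change 1.08, SE 0.06), and FN1 (-0.01, SE 0.09) and TNXB (-0.81, SE 0.26, edgeR adjusted p = 0.0861) did not pass; TNXB passed with the block (adjusted p = 0.00902). The median of the 3 was -0.01. FN1 changed sign under RLE scaling (0.00102 on the log2 scale).

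Of 11 tested basement membrane partners of the type IV chains 7 fell and 4 did not pass, with a median of -0.33. LAMA5, a laminin alpha chain, measured 744, 784 and 773 CPM in control and 392, 347 and 401 CPM in KO (log2 change -1.01, SE 0.07, adjusted p = 1.16e-04 in edgeR). The heparan sulphate proteoglycan HSPG2 (-0.50, SE 0.06) and PXDN, which cross-links type IV collagen (-0.53, SE 0.07), also fell. With replicate 1 or 2 of either group omitted, 4 of the list fell, while 2.89% to 3.33% of all genes did.

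**Figure D4:**
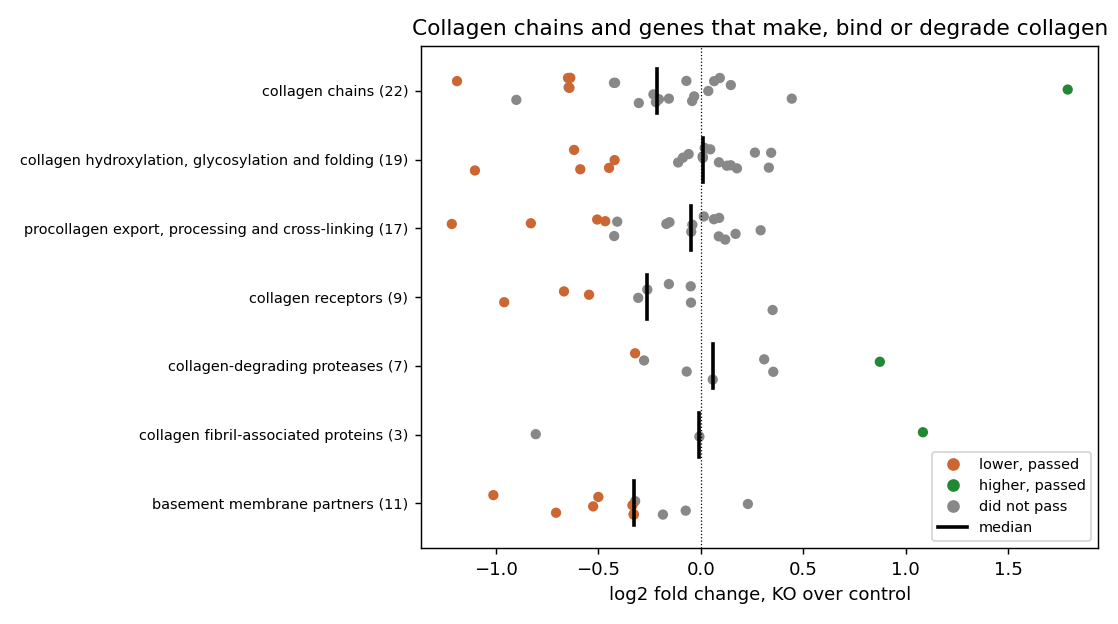
Each point is a tested gene, placed by its log2 fold change of KO over control; rows are the collagen chains and 6 lists with the number tested, black bars are medians, and colour gives the test result. The basement membrane partners have the lowest median (-0.33).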

How the data were processed

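Polyadenylated RNA of 3 control and 3 KO libraries was measured by RNA-seq. The deposited values are raw counts of reads per gene, made by the authors with STAR 2.7.9a and featureCounts on hg38, per the submitters' processing notes, which also list FastQC 0.11.9 and R 4.1.1. Libraries were stranded, per the labels' protocols; the annotation, strand setting and handling of multi-mapping reads are each not given in the sources used here. COL4A1 and COL4A2, COL18A1 and SLC19A1, and COL9A3 and TCFL5 overlap on opposite strands and could share reads. The same holds for COL15A1 and AL136084.3, COL16A1 and AC114488.2, COL5A2 and AC133106.1, and COL4A5 and RF00019. The 10 antisense, divergent and pseudogene rows named after collagen genes held at most 1 count.

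Counts were tested with edgeR 4.0.16 (limma 3.58.1, R 4.3.3): filterByExpr, TMM factors and robust quasi-likelihood fits with group as the term, over all genes, with Benjamini-Hochberg adjustment at 0.05. CPM and RPKM use TMM-scaled libraries; the length is that of the GENCODE 29 transcript with the longest coding sequence, and RPKM moves with that choice. The procedure was tested on simulated counts without a replicate effect, so that test does not cover the shared deviations described below. Alternatives were DESeq2 1.42.0, RLE factors, other filters, single libraries left out and the replicate number as a block. Deviations of same-numbered libraries correlated at 0.55, 0.45 and 0.83 across 10032 genes, but only 2 of 6 libraries correlated best with their own number. Replicate 3 stood apart in both groups, so these values do not show that numbers 1 and 2 pair the samples. The reported calls used group alone, and the numbers served only in the block and in the ratios compared within numbers. Any pairing comes from the data, not the design. Between replicates, chi-square divided by its degrees of freedom was at least 3.88, so no libraries matched within sampling noise.

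Every chain past the test or with a mean of at least 5 CPM is named with its values, as are up to 4 genes per list with the smallest adjusted p. A gene that this rule names is not reported here. Members and lists were chosen with earlier results of these data known. The list of luminal markers had 2 of 7 tested genes lower and 0 higher. Of all genes tested, 6.42% were lower and 3.28% higher, which is the background for each marker list. The line's own basal markers had 1 lower and 1 higher of 8, the stromal list 1 higher of 4 (PI16), the endothelial list 1 lower of 2 (PECAM1) and the leukocyte list 1 lower of 2 (LYZ).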

Additional observations from a re-analysis of the deposited data

How the results depend on the processing

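The 5 chains that passed kept their direction and side of the threshold with RLE factors, DESeq2 and no low-count filter. With a filter of at least 1 CPM on average, COL15A1 was not tested, so 0 chains rose, and 5 fell. Of all genes, 3.68% rose and 7.15% fell with that filter. The replicate block and the fit without both replicate 3 libraries each gave 9 lower chains, where 16.7% and 13.7% of all genes fell. No other call of a chain was changed by the block than those of COL4A1, COL4A2, COL5A1, COL27A1 and COL9A2. With 1 library left out, 3 to 5 chains fell and 0 to 1 rose, where 2.89% to 6.42% of all genes fell and 0.903% to 5.17% rose. COL9A2 also passed without the low-count filter (adjusted p = 0.0159).

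Without KO replicate 3, COL6A3 went to 0.15, and to 0.0909 without both replicate 3 libraries. With 1 library left out, COL6A3 ran from -0.20 to 0.15, COL7A1 from -0.16 to 0.13 and COL12A1 from -0.0378 to 0.11 on the log2 scale. FN1 turned to 0.00102 with RLE factors, 0.00418 with DESeq2 and ran from -0.0743 to 0.0838 with 1 library left out.

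In the hydroxylation list 1 gene rose with RLE factors, DESeq2 or no filter, 5 with the block and 3 without both replicate 3 libraries (0 to 1 with 1 library left out). Among receptors 1 rose with DESeq2, no filter, the block or without both replicate 3 libraries (0 to 1 with 1 left out). Among proteases 3 rose with the block, and 0 to 1 fell with 1 library left out. Among fibril-associated genes 1 fell without the filter, with the block and without both replicate 3 libraries. Of the basement membrane partners 1 rose with the block and without both replicate 3 libraries, 0 to 1 rose and 4 to 7 fell with 1 library left out. Of all genes, 17.2% rose and 16.7% fell with the block, and 11.7% rose and 13.7% fell without both replicate 3 libraries. The share that rose was 3.58% with RLE factors, 3.75% with DESeq2 and 2.5% without the filter, where 4.54% fell. With 1 library left out, 0.903% to 5.17% of all genes rose and 2.89% to 6.42% fell. The causes of these changes in the lists were not tested. Of all calls, 66.2% were lower; with the block 49.4% were, and without both replicate 3 libraries 53.9%. Counting 5 or more counts in at least 3 libraries gave 24 expressed chains, and 10 or more in all 6 gave 19. Depth limits the chains under 1 CPM, where the SE of the log2 fold change was 0.35 to 0.49.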

Other observations

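COL4A6, too low to test, had 3, 6 and 4 counts in control and 10, 9 and 6 in KO. COL1A1 was expressed beside almost no COL1A2, which had 0, 4 and 3 counts in control and 1, 3 and 0 in KO.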
